A study of Mus musculus with 9 samples.

Results

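Genes of pericytes and vascular smooth muscle, the mural cells that wrap brain vessels, were followed in tissue from around a brain infarct in mice. The set held 10 genes of the 55401 in the deposited table, taken by their symbols: Pdgfrb, Rgs5, Acta2, Tagln, Myh11, Abcc9, Vtn, Anpep, Notch3 and Des. All 10 were present, and each had at least 149 counts in every library and a mean of at least 0.5 FPKM (fragments scaled to gene length and library depth), the level above which genes were tested.

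RNA was sequenced in 9 libraries, 3 from each of 3 groups of wild-type mice, all at day 28. In the Pushen group, mice with photothrombotic stroke (PT), made by lighting the brain surface once a dye that clots vessels under light is in the blood, were given Pushen, a manufactured drug dissolved in water, by oral gavage from 24 h after surgery. The labels give 391, 392 and 393 mg/kg for Pushen libraries 1, 2 and 3, and these were treated as 1 dose group. In the PT group, mice with the same lesion received ultrapure water, the vehicle, and in the Sham group sham-operated mice received ultrapure water. The sources used here give no strain, sex or age, and do not say whether each library came from its own animal. The p-values therefore reflect the spread among libraries alone, and part or all of that spread may be technical.

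The deposited counts summed to between 57437342 and 73499628 in the Pushen libraries, 64482908 and 75100133 in the PT libraries, and 66775462 and 72646409 in the Sham libraries. The tissue is labelled brain while the extraction protocol in the labels speaks of retinas. The 6 photoreceptor genes looked at summed to at most 0.72 FPKM in any library, and the 6 neuronal genes to at least 584 FPKM. PT library 1 and Pushen library 2 stood apart by choroid plexus genes, which summed to 549 and 630 FPKM there and to between 3.14 and 151 FPKM in the other libraries. PT library 1 also held 405 FPKM of striatal genes against at most 98.4 FPKM in the others. Leaving out PT library 1 and Pushen library 2 together left the count of genes of the set that passed the test at 8 for PT over Sham, 0 for Pushen over PT and 5 for Pushen over Sham.

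Mural cells set vessel tone and stabilise the endothelium. Endothelial cells recruit pericytes by releasing PDGF-B, which binds the receptor PDGFRβ (Pdgfrb) on the pericyte, while the NOTCH3 receptor keeps arterial smooth muscle differentiated. Contractile smooth muscle is marked by the actin Acta2, the actin-binding Tagln and the myosin heavy chain Myh11, whose transcription is driven by serum response factor and its myocardin-family partners acting at CArG boxes. None of the 10 genes belongs to mural cells alone. Fibroblasts of scars and meninges also make Pdgfrb and Acta2, and CD13, the product of Anpep, is also found on myeloid cells and fibroblasts.

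The stretches of DNA just before the start sites of Acta2 and Rgs5 are shown because the first rose around the infarct and the other did not pass the test and because Acta2 is a known CArG-box gene. Leaving aside Pdgfrb, Tagln and Myh11, windows from RefSeq (GRCm38.p6) were used for 7 of the 10 genes. Each is the 250 bases before the RefSeq start, written 5′ to 3′ on the gene's own strand, with capitals for CArG boxes in which up to 1 of the 6 middle letters may be G or C, an allowance made after the Acta2 window had been read. The Acta2 window lies at chr19:34255374-34255623 on the minus strand, and the deposited table places the start of the gene 217 bases upstream of the RefSeq start, inside the window. The Rgs5 window lies at chr1:169655251-169655500 on the plus strand.
Acta2: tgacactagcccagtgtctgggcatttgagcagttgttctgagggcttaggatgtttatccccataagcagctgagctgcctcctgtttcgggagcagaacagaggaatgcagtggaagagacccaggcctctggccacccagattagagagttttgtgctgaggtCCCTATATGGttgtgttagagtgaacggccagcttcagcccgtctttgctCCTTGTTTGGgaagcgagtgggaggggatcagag
Rgs5: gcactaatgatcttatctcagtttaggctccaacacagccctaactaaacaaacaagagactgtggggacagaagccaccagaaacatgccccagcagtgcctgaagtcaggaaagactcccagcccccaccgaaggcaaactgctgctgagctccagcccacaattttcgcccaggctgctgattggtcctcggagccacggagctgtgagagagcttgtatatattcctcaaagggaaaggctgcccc

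The Acta2 window held 2 such boxes, CCCTATATGG from 84 to 75 bases and CCTTGTTTGG from 34 to 25 bases before the RefSeq start. Across 32544 distinct windows of the same length, 8.59% held at least 1 such box on either strand and 0.661% held 2 or more. The windows of Rgs5, Abcc9, Vtn, Anpep, Notch3 and Des held 0. With no G or C allowed, 1.48% of all windows held a box and all 7 windows of the set held 0. A match describes the letters only.

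PT was compared with Sham to ask how mural cell genes stood around the infarct at day 28. Of the 10 genes, 8 were higher in PT and 0 were lower, with Rgs5 and Abcc9 not passing the test. The rises ran from 1.67-fold for Vtn to 8.20-fold for Anpep, and the contractile genes Acta2 and Tagln stood at 2.64-fold and 2.47-fold. A gene was called changed at an adjusted p under 0.05 in edgeR's quasi-likelihood test with Benjamini-Hochberg adjustment over all 16740 tested genes. By this rule 19.1% of all tested genes were called higher in PT and 11.8% lower, 30.9% in all. The median log2 fold change was 0.85 over the 10 genes and -0.0029 over all tested genes. In bulk tissue, more cells of a type and more RNA per cell cannot be told apart.

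**Figure D1:**
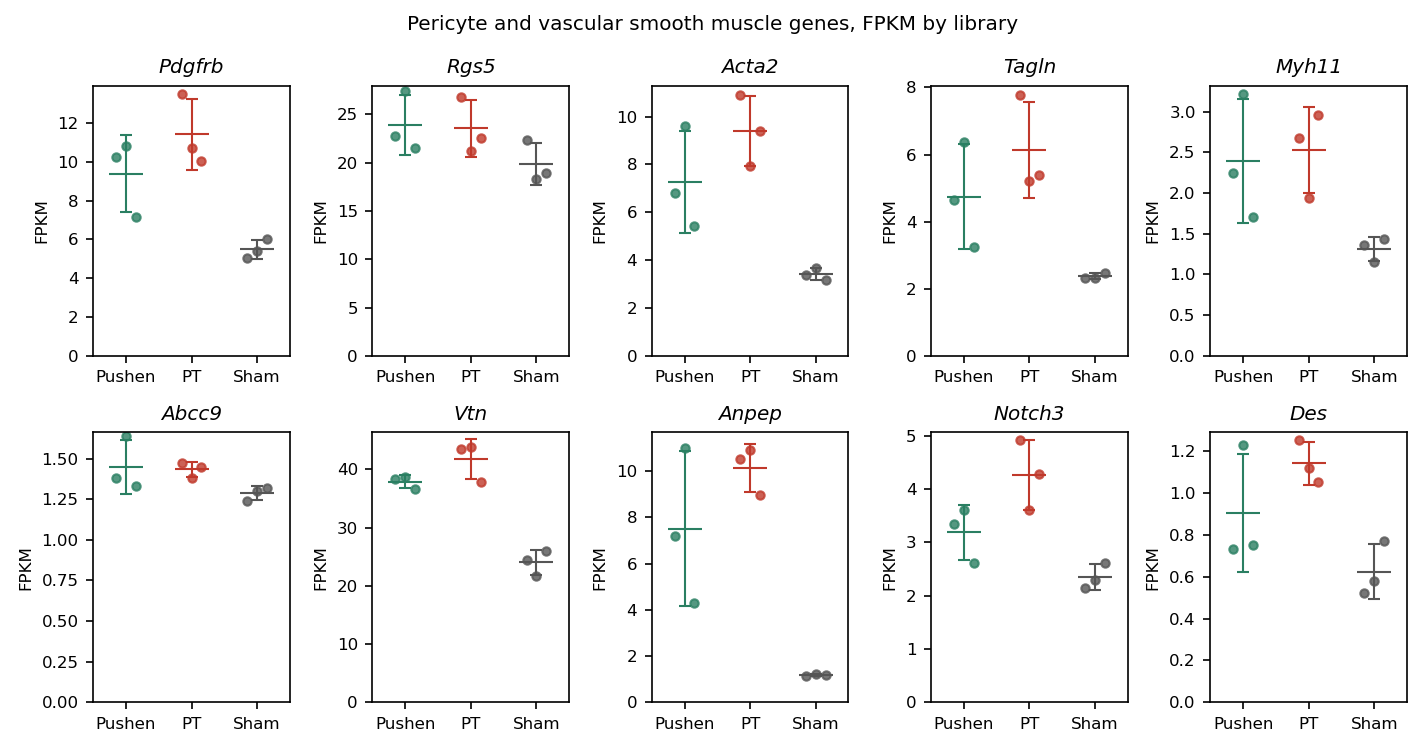
FPKM of each of the 10 genes in the Pushen, PT and Sham libraries (points), with the group mean and SD (bar and whiskers, n = 3 libraries each) on axes that start at 0. The PT and Sham points lie apart for every gene except Rgs5, and Anpep averages 10.1 FPKM in PT and 1.18 FPKM in Sham.

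Among the receptors, Pdgfrb (ENSMUSG00000024620, chromosome 18 from 61045150 to 61085061, plus strand, GRCm38) stood at 13.5, 10.7 and 10.02 FPKM in the PT libraries, against 5.06, 5.42 and 6.01 FPKM in the Sham libraries. Every PT library was well above every Sham library. The log2 fold change was 1.00 ± 0.16 (SE, adjusted p = 0.00265, edgeR). Notch3 (ENSMUSG00000038146, chromosome 17 from 32120820 to 32166852, minus strand) measured 4.91, 3.60 and 4.28 FPKM in PT and 2.14, 2.30 and 2.61 FPKM in Sham. Its groups were also apart, with a log2 fold change of 0.80 ± 0.15 (adjusted p = 0.00497, edgeR). An antisense gene, Gm17276, overlaps Notch3 and held between 136 and 317 counts in any library, at most 13.7% of the Notch3 count. Whether counting used strand is not stated.

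Of the contractile genes, Acta2, smooth muscle alpha-actin (ENSMUSG00000035783, chromosome 19 from 34241090 to 34255590, minus strand), reached 10.9, 7.95 and 9.38 FPKM in PT and 3.38, 3.68 and 3.19 FPKM in Sham. The lowest PT library was above every Sham library, and the log2 fold change was 1.40 ± 0.20 (adjusted p = 0.00154, edgeR). Tagln, transgelin or SM22 (ENSMUSG00000032085, chromosome 9 from 45929619 to 45936058, minus strand), followed the same order, with 7.77, 5.22 and 5.40 FPKM in PT and 2.33, 2.33 and 2.48 FPKM in Sham. Its log2 fold change was 1.30 ± 0.24 (adjusted p = 0.00484, edgeR). The antisense gene Gm48529, which overlaps 3627 bases of Tagln, had between 182 and 301 counts in PT and between 96 and 132 in Sham, where Tagln had between 787 and 1256 and between 353 and 385. The gene Pcsk7 on the opposite strand overlaps another 94 bases. Without strand, the share of Tagln reads that belongs to these partners cannot be told.

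Myh11, the smooth muscle myosin heavy chain (ENSMUSG00000018830, chromosome 16 from 14194535 to 14291372, minus strand), lay at 2.68, 1.94 and 2.96 FPKM in PT and 1.36, 1.15 and 1.43 FPKM in Sham. Des, the muscle intermediate filament desmin (ENSMUSG00000026208, chromosome 1 from 75360329 to 75368579, plus strand), lay at 1.25, 1.12 and 1.05 FPKM in PT and 0.52, 0.58 and 0.77 FPKM in Sham. Both were higher in every PT library than in any Sham library. Their log2 fold changes were 0.89 ± 0.24 and 0.81 ± 0.24 (adjusted p = 0.0225 and 0.0315, edgeR), nearest the threshold of the 8 that passed. Myh11 lost its call without PT library 1 or 3 or Sham library 1 or 2 (adjusted p = 0.0636, 0.0606, 0.0601 and 0.0783, edgeR). Des lost it without PT library 1 or 2 or Sham library 1 or 2 (adjusted p = 0.0874, 0.0655, 0.104 and 0.0966, edgeR) and with no filter on low values (adjusted p = 0.0590, edgeR).

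The coding sequences of the muscle actins are near-identical, and how reads that fit several genes were counted is not stated, so the Acta2 values carry that uncertainty. The smooth muscle relative Actg2 was at most 0.19 FPKM in any library and the cardiac Actc1 at most 0.05 FPKM. The skeletal muscle Acta1 averaged 3.39 ± 0.54 FPKM in PT and 4.54 ± 0.21 FPKM in Sham (SD, n = 3 each) and did not pass the test (log2 fold change -0.48 ± 0.17, adjusted p = 0.0643, edgeR). The other 7 skeletal muscle markers, Ckm, Mylpf, Tnnt3, Myh4, Tnnc2, Myh1 and Mb, were at most 0.48 FPKM each in every library.

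Of the secreted and surface proteins, Anpep, aminopeptidase N or CD13 (ENSMUSG00000039062, chromosome 7 from 79821803 to 79848210, minus strand), was the gene of the set with the largest change. It measured 10.6, 10.9 and 8.95 FPKM in PT, against 1.14, 1.22 and 1.19 FPKM in Sham. The Sham libraries lay close together and far below every PT library. The log2 fold change was 3.03 ± 0.29 (adjusted p = 0.000461, edgeR), which placed Anpep at rank 424 of 16740 by fold change. Vtn, the adhesive plasma and matrix protein vitronectin (ENSMUSG00000017344, chromosome 11 from 78499091 to 78502324, plus strand), was the most abundant gene of the set, with 43.5, 43.8 and 37.7 FPKM in PT and 24.4, 21.8 and 26.0 FPKM in Sham. Its log2 fold change of 0.74 ± 0.09 was the smallest of the 8 that passed and had the smallest error (adjusted p = 0.000748, edgeR).

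The 2 genes that did not pass, Rgs5 and Abcc9, are used as markers of brain pericytes, as are Pdgfrb, Vtn and Anpep, which passed. Rgs5, a regulator that shortens G-protein signals (ENSMUSG00000026678, chromosome 1 from 169655501 to 169695813, plus strand), measured 26.8, 21.2 and 22.5 FPKM in PT and 22.3, 18.3 and 19.0 FPKM in Sham. Its groups overlapped, since Sham library 1 lay above PT library 2. The log2 fold change was 0.19 ± 0.13 with a 95% interval from -0.11 to 0.48 (adjusted p = 0.311, edgeR). Abcc9, the SUR2 subunit of the ATP-sensitive potassium channel (ENSMUSG00000030249, chromosome 6 from 142587862 to 142702315, minus strand), measured 1.47, 1.38 and 1.45 FPKM in PT and 1.24, 1.30 and 1.32 FPKM in Sham. Its values did not overlap, but the difference was small, with a log2 fold change of 0.10 ± 0.10 and a 95% interval from -0.14 to 0.34 (adjusted p = 0.497, edgeR). Over the whole set 9 of 10 genes had every PT value above every Sham value, as had 29.3% of all tested genes.

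**Figure D2:**
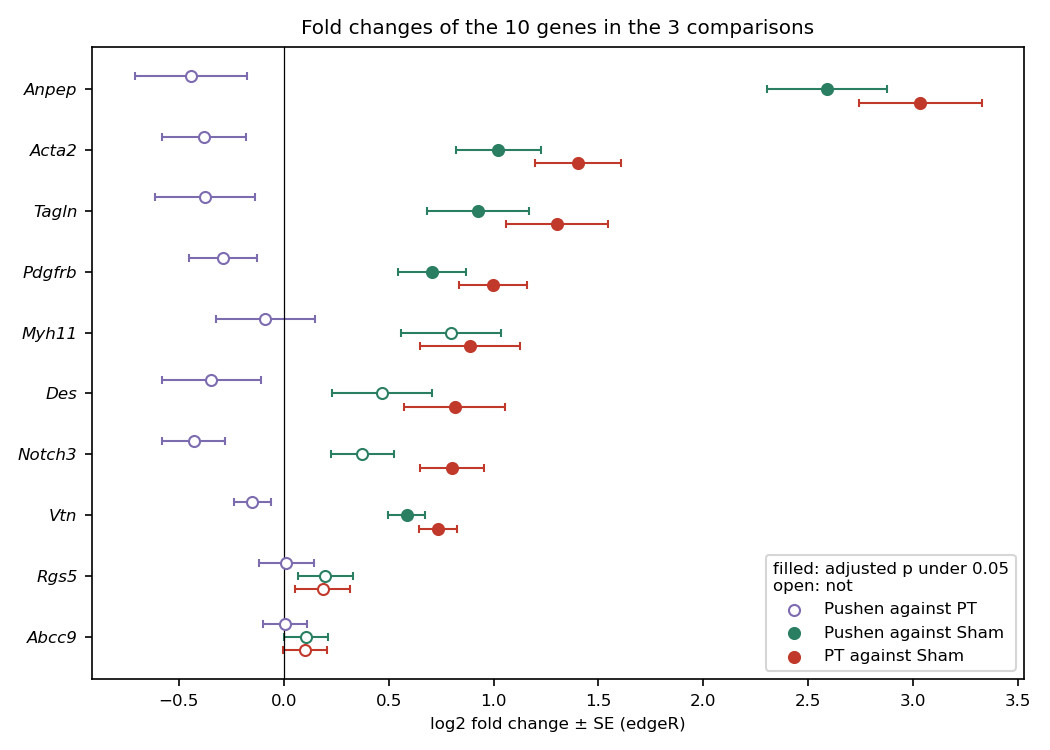
Log2 fold change of each gene with its SE from edgeR in Pushen against PT, Pushen against Sham and PT against Sham, with filled points for an adjusted p under 0.05 and open points otherwise. Rgs5 and Abcc9 sit near 0 in all 3 comparisons, while Anpep stands at 3.03 in PT against Sham and 2.59 in Pushen against Sham.

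The order of the genes by level per length shifted accordingly. In Sham, Vtn and Rgs5 led with 24.1 ± 2.15 and 19.9 ± 2.16 FPKM (SD, n = 3), and their values overlapped. Pdgfrb and Acta2 came next at 5.50 ± 0.48 and 3.42 ± 0.25 FPKM and were apart from each other. Tagln and Notch3 overlapped at 2.38 ± 0.09 and 2.35 ± 0.24 FPKM. Myh11 at 1.31 ± 0.15 FPKM overlapped both Abcc9 at 1.29 ± 0.04 and Anpep at 1.18 ± 0.04 FPKM, and Des was lowest at 0.62 ± 0.13 FPKM. In PT, Anpep was no longer next to last but overlapped Pdgfrb and Acta2, with means of 11.4 ± 1.83 FPKM for Pdgfrb, 10.1 ± 1.04 for Anpep and 9.41 ± 1.47 for Acta2 (SD, n = 3). Vtn at 41.7 ± 3.44 FPKM and Rgs5 at 23.5 ± 2.92 FPKM were then apart. The means of the Pushen libraries fell in the same order as those of PT.

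Ratios of genes within a library do not depend on how libraries are scaled. Per unit of Rgs5 FPKM, Acta2 stood at 0.406, 0.374 and 0.416 in PT, against 0.151, 0.201 and 0.168 in Sham. Pdgfrb per unit of Rgs5 was 0.503, 0.505 and 0.445 in PT and 0.227, 0.296 and 0.317 in Sham. Both ratios were higher in every PT library than in any Sham library. The mean log2 ratio differed by 1.21 for Acta2 to Rgs5 and by 0.80 for Pdgfrb to Rgs5, with p = 0.10 for each in an exact two-sided permutation test, the smallest p that 3 against 3 libraries allow, and 0.18 after Benjamini-Hochberg adjustment over 9 ratio tests. The ratio of Acta2 to Myh11, both genes of smooth muscle, was 4.06, 4.10 and 3.17 in PT and 2.49, 3.20 and 2.23 in Sham, and these values overlapped (exact permutation p = 0.20, adjusted 0.225).

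**Figure D3:**
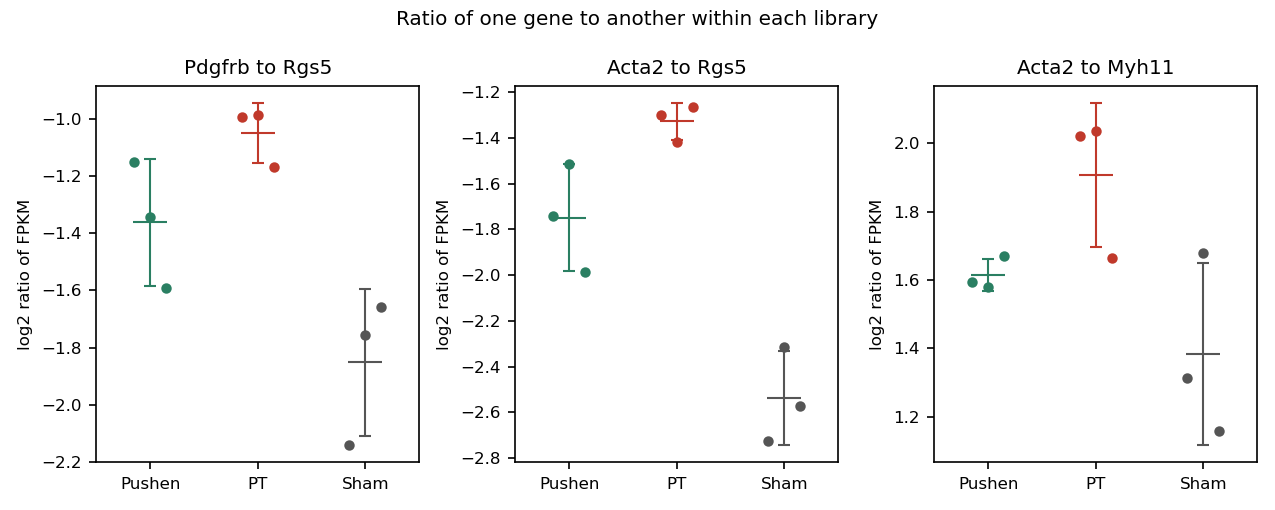
Log2 ratio of FPKM of Pdgfrb to Rgs5, Acta2 to Rgs5 and Acta2 to Myh11 within each Pushen, PT and Sham library (points), with the group mean and SD (n = 3 each). The Acta2 to Rgs5 ratio averages -1.75 in Pushen, -1.33 in PT and -2.54 in Sham, with no overlap between groups.

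Other mural cell genes were listed as well. Of 22, 20 were tested, and 11 were higher in PT and 0 lower (median log2 fold change 0.62, range -0.17 to 2.81). Of all tested genes 19.1% were higher and 11.8% lower. Among those that passed were Ifitm1 (2.81 ± 0.30), the highest of the list, Mcam, the adhesion protein CD146 (0.94 ± 0.17), the contractile-filament genes Lmod1 (0.95 ± 0.21), Myl9 (0.78 ± 0.19) and Smtn (0.74 ± 0.14), the mural transcription factor Tbx18 (1.82 ± 0.24) and Cspg4, the proteoglycan NG2 (0.53 ± 0.13). Cspg4 and Myl9 lost their call without Sham library 2 (adjusted p = 0.0573 and 0.0606, edgeR), Cspg4 also without PT library 1 and Pushen library 2 together (adjusted p = 0.0589, edgeR), and Myl9 also without PT library 1 or Sham library 1 (adjusted p = 0.0503 and 0.0516, edgeR). The contractile genes Mylk, the myosin light chain kinase, and Tpm1, a tropomyosin, stood at 0.51 ± 0.18 and -0.17 ± 0.08 and did not pass (adjusted p = 0.0576 and 0.154, edgeR). Mylk passed in 5 of 20 alternatives, among them without Pushen library 2 or 3 (adjusted p = 0.0479 and 0.0152, edgeR), and Tpm1 in 1, as lower, without PT library 3 (adjusted p = 0.0366, edgeR). The pericyte markers Kcnj8, Higd1b, Atp13a5 and Ndufa4l2 stood at 0.26 ± 0.23, 0.12 ± 0.24, 0.32 ± 0.15 and 0.46 ± 0.18 on the log2 scale and did not pass (adjusted p = 0.417, 0.730, 0.143 and 0.0792, edgeR). Ndufa4l2 passed in limma-trend on log2 FPKM (adjusted p = 0.0342 with a pseudocount of 1 and 0.0300 with 0.1).

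Genes that act with the set in signalling were also listed. Over all tested genes 19.1% were called higher in PT and 11.8% lower. Of 5 PDGF ligands and receptors 2 passed, both higher in PT. They were Pdgfb, the endothelial ligand of Pdgfrb (0.47 ± 0.10, adjusted p = 0.00826, edgeR), and the sister receptor Pdgfra (0.69 ± 0.12, adjusted p = 0.00400, edgeR). The ligand Pdgfd stood at 0.62 ± 0.21 (adjusted p = 0.0515, edgeR) and passed in several alternatives, DESeq2 among them (adjusted p = 0.0259). Of 12 Notch ligands, receptors and targets 5 were higher and 0 lower (median 0.48), including the ligand Jag1 (1.18 ± 0.21), the receptors Notch1 (0.83 ± 0.14) and Notch2 (1.67 ± 0.20) and the target Hey2 (0.57 ± 0.16, adjusted p = 0.0297, edgeR). Hey2 passed in 12 of 20 alternatives and lost its call, among others, without PT library 1 or 2 or Sham library 1 or 2 (adjusted p = 0.0793, 0.0865, 0.0957 and 0.0978, edgeR). The endothelial ligand Dll4 stood at 0.57 ± 0.19 (adjusted p = 0.0521, edgeR) and passed by DESeq2 (adjusted p = 0.0262). Heyl, a target of Notch3 in smooth muscle, stood at 0.27 ± 0.21 and did not pass (adjusted p = 0.365, edgeR). Of the 7 tested regulators of smooth muscle transcription, 4 were higher, among them Foxc1 (1.74 ± 0.18), Klf4 (0.90 ± 0.17) and Foxf2 (0.47 ± 0.13, adjusted p = 0.0215, edgeR), and Mrtfb, a myocardin relative, was lower (-0.51 ± 0.11). Foxf2 passed in 15 of 20 alternatives and lost its call, among others, without PT library 2 or Sham library 1 or 2 (adjusted p = 0.0692, 0.0752 and 0.0751, edgeR). The other relative, Mrtfa, stood at -0.07 ± 0.10 and did not pass (adjusted p = 0.658, edgeR). Srf itself stood at 0.26 ± 0.10 (adjusted p = 0.0830, edgeR) and passed in limma-trend on log2 FPKM (adjusted p = 0.0470 with a pseudocount of 1 and 0.0471 with 0.1). Myocd was at most 0.05 FPKM in any library and was not tested.

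For the potassium channel, Kcnj8, the pore subunit that pairs with Abcc9 in pericytes, averaged 1.66 ± 0.49 FPKM in PT and 1.33 ± 0.11 FPKM in Sham (SD, n = 3 each). Kcnj11, the pore subunit of neurons, was lower (-0.43 ± 0.13, adjusted p = 0.0362, edgeR). Kcnj11 lost this call without PT library 1 or 2, Pushen library 2, or Sham library 1 or 2 (adjusted p = 0.110, 0.0589, 0.0520, 0.126 and 0.103, edgeR), and in several other alternatives (adjusted p between 0.0501 and 0.140). Of 9 listed partners of the channel and of vitronectin, 4 were higher and 1 lower, where 19.1% and 11.8% of all tested genes were. Among partners of vitronectin, the integrin subunits Itgb5 (1.79 ± 0.23) and Itgb1 (1.01 ± 0.14) and the urokinase receptor Plaur (2.43 ± 0.45) were higher in PT. The integrin subunit Itgb3 stood at -0.11 ± 0.14 and did not pass (adjusted p = 0.580, edgeR). Itgav, the alpha subunit that pairs with Itgb5, did not pass (-0.62 ± 0.46, adjusted p = 0.337, edgeR). It measured 1.62, 7.59 and 8.41 FPKM in PT and 8.71, 8.43 and 8.90 FPKM in Sham, and without PT library 1, which stood apart, its log2 fold change was -0.17 (adjusted p = 0.144, edgeR). Among relatives of the contractile genes, Tagln2 (2.42 ± 0.26), the non-muscle myosin Myh9 (0.87 ± 0.11) the filament vimentin, Vim (3.20 ± 0.27), and nestin, Nes (0.51 ± 0.16, adjusted p = 0.0389, edgeR), were higher, while the non-muscle myosin Myh10 was lower (-0.42 ± 0.09). Nes passed in 10 of 20 alternatives and lost its call, among others, without any single library other than PT library 3, Pushen library 3 and Sham library 3 (adjusted p between 0.0555 and 0.126, edgeR). Of the relatives of Rgs5, Rgs16 was higher (0.76 ± 0.12) and Rgs4 lower (-0.48 ± 0.11).

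Markers of fibroblasts, macrophages and microglia, endothelium and astrocytes moved with the set, and those of neurons went the other way. All 10 fibroblast and meningeal markers were higher in PT (median log2 fold change 2.87), among them Col1a1 (4.43 ± 0.45) and Dcn (3.83 ± 0.36), and their summed level was between 125 and 184 FPKM in PT and between 26.2 and 29.6 FPKM in Sham. All 7 tested of 8 macrophage and microglia markers were higher (median 3.97), with a summed level between 797 and 1054 FPKM in PT and between 34.7 and 41.9 FPKM in Sham. Of 10 endothelial markers 8 were higher (median 0.55), with Vwf at 1.28 ± 0.25, Cdh5 at 1.00 ± 0.14, Cldn5 at 0.47 ± 0.14 (adjusted p = 0.0356, edgeR) and Flt1 at 0.09 ± 0.07, the last not passing (adjusted p = 0.351, edgeR). Cldn5 passed in 10 of 20 alternatives and lost its call, among others, with any of PT library 1 or 2, Pushen library 1 or any Sham library left out singly (adjusted p between 0.0528 and 0.113, edgeR). The summed endothelial level was between 80.7 and 110 FPKM in PT and between 62.2 and 62.7 FPKM in Sham. All 4 astrocyte markers were higher and 4 of 6 neuronal markers lower in PT. Beside these list counts, 19.1% of all tested genes were higher and 11.8% lower. Every fibroblast and endothelial marker had counts in every library, and between 0 and 2 of the macrophage markers were at 0 counts in a Sham library. Their part in the rise of the mural genes was not tested.

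**Figure D4:**
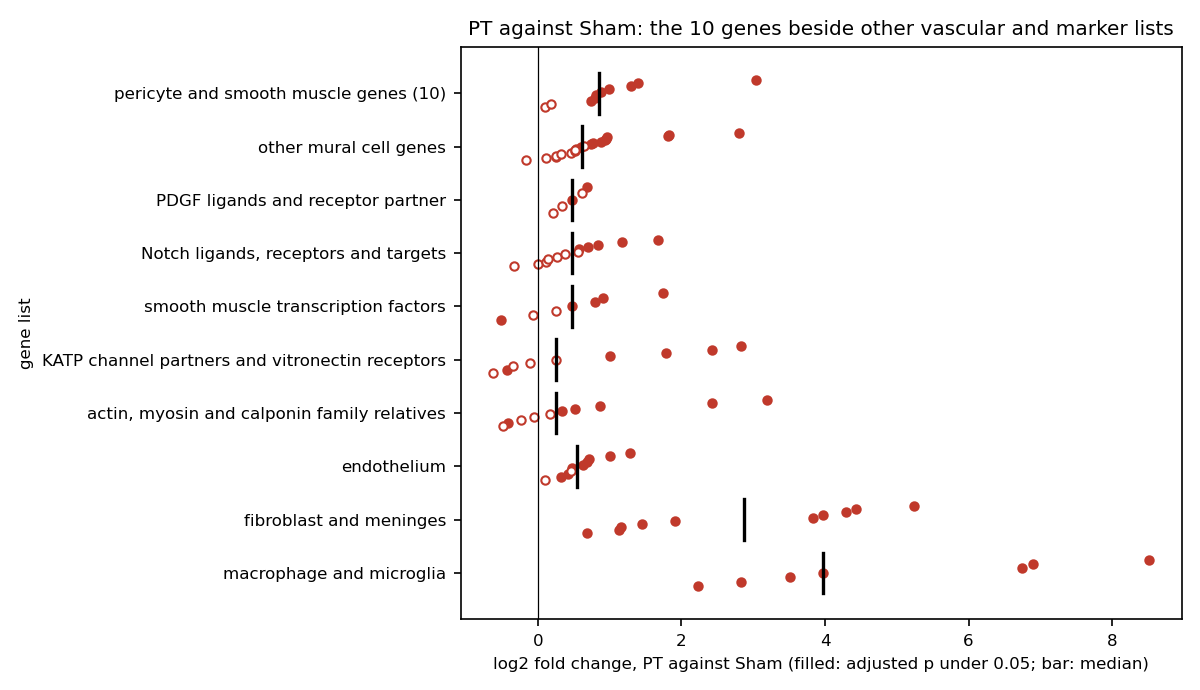
Log2 fold changes in PT against Sham of the 10 genes and of other gene and marker lists, 1 point per tested gene, filled for an adjusted p under 0.05, with a bar at the median of each list. The median is 0.85 for the 10 genes, 0.55 for endothelium, 2.87 for fibroblasts and meninges, and 3.97 for macrophages and microglia.

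Pushen was compared with PT to ask whether the treatment changed these genes after the lesion. None of the 10 passed edgeR's test, in which 0% of all tested genes were called, and DESeq2 and limma-trend also called 0 of the 10. At an unadjusted p under 0.05 edgeR gave 1 of the 10, Notch3, against 6.49% of all tested genes. The 95% intervals leave room for changes of some size, as for Acta2 (log2 fold change -0.38, interval -0.83 to 0.07) and Anpep (-0.44, interval -1.05 to 0.16). Those of Rgs5 (0.01, interval -0.29 to 0.31) and Abcc9 (0.01, interval -0.23 to 0.24) were centred near 0. The fold change was below 0 for 8 of the 10 genes, as for 51.7% of all tested genes. The median was -0.32 over the 10 genes and -0.01 over all tested genes.

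The Pushen libraries differed among themselves. Anpep measured 7.21, 11.01 and 4.31 FPKM in Pushen libraries 1, 2 and 3, against 10.6, 10.9 and 8.95 FPKM in PT. Acta2 measured 6.79, 9.60 and 5.44 FPKM with Pushen, against 10.9, 7.95 and 9.38 FPKM in PT. Tagln followed with 4.64, 6.37 and 3.24 FPKM with Pushen and 7.77, 5.22 and 5.40 FPKM in PT. For each of these genes Pushen library 2 lay within or above the PT range and Pushen libraries 1 and 3 below it. Pdgfrb measured 10.2, 10.8 and 7.15 FPKM with Pushen and 13.5, 10.7 and 10.02 FPKM in PT, with Pushen library 3 alone below the PT range.

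Notch3 was close to a separation, at 3.35, 3.61 and 2.61 FPKM with Pushen and 4.91, 3.60 and 4.28 FPKM in PT. Only Pushen library 2 and PT library 2 crossed, narrowly. Its log2 fold change was -0.43 ± 0.15 with an interval from -0.77 to -0.09 and an unadjusted p of 0.0191, which became an adjusted p of 0.707 (edgeR). No gene of the set had all Pushen values on one side of all PT values, as against 7.25% of all tested genes with Pushen higher and 5.19% with Pushen lower. The remaining genes overlapped as well, with Vtn between 36.5 and 38.6 FPKM with Pushen and between 37.7 and 43.8 FPKM in PT, Myh11 between 1.71 and 3.21 and between 1.94 and 2.96, Des between 0.73 and 1.23 and between 1.05 and 1.25, Rgs5 between 21.6 and 27.4 and between 21.2 and 26.8, and Abcc9 between 1.33 and 1.64 and between 1.38 and 1.47.

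**Figure D5:**
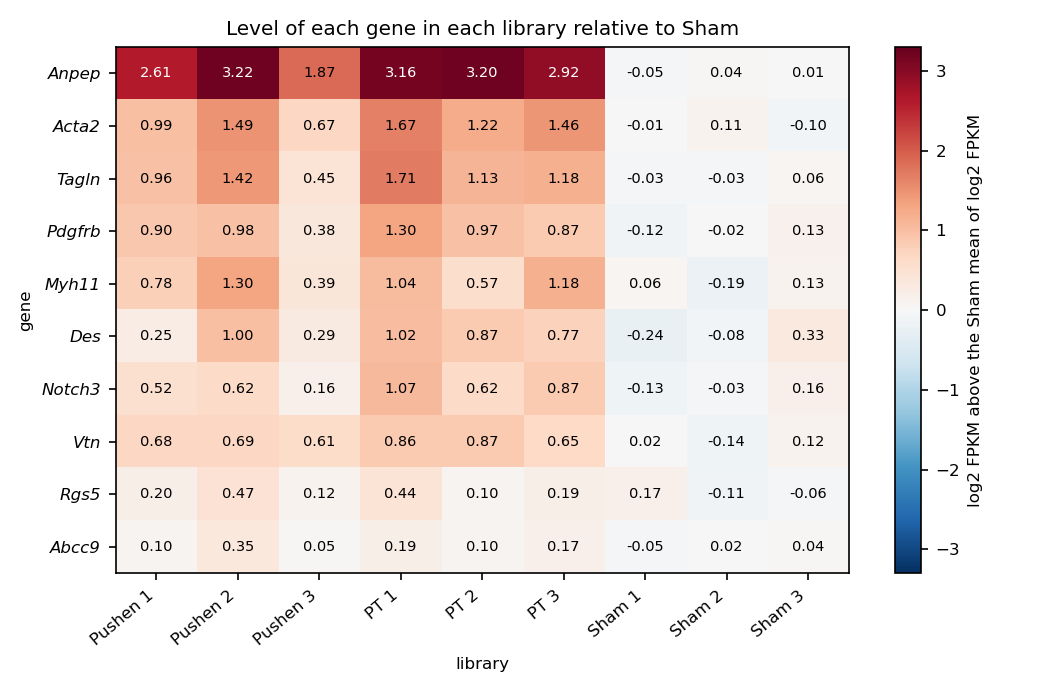
Log2 FPKM of each gene in each library above the mean log2 FPKM of the Sham libraries, with Pushen, PT and Sham libraries from left to right and genes ordered by their change in PT. Pushen library 3 is the palest of the 6 infarct columns, with a median of 0.39 against between 0.73 and 1.05 in the other 5.

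Pushen library 3 was the lowest of the 6 infarct libraries for 8 of the 10 genes, all but Rgs5 and Des. Its median level above Sham was 0.39 log2 units, against 0.73 and 0.99 in Pushen libraries 1 and 2 and between 0.87 and 1.05 in PT. Pushen library 2 was the highest of the 3 Pushen libraries for all 10. Of the 6 infarct libraries, PT library 1 was highest for 5 genes, Pushen library 2 for 4 and PT library 2 for 1. PT library 1 and Pushen library 2 were also those that stood apart by choroid plexus genes. The part of that difference in the level of the 10 genes was not tested. Markers of several other cell types also stood apart in Pushen library 3. The fibroblast and meningeal sum was 74.3 FPKM in Pushen library 3, between 136 and 173 FPKM in Pushen libraries 1 and 2, and between 125 and 184 FPKM in PT. The macrophage and microglia sum was 299 FPKM in Pushen library 3, 909 and 1036 FPKM in Pushen libraries 1 and 2, and between 797 and 1054 FPKM in PT. The astrocyte sum was 229 FPKM in Pushen library 3, 407 FPKM in each of Pushen libraries 1 and 2, and between 285 and 569 FPKM in PT. The neuronal sum was 802 FPKM in Pushen library 3, 694 and 654 FPKM in Pushen libraries 1 and 2, and between 584 and 782 FPKM in PT. In Pushen library 3 Snap25 (334 FPKM) and Syt1 (175 FPKM) lay above the PT range, and Rbfox3, Map2, Slc17a7 and Gad1 lay within it. The endothelial sum did not stand apart, at 84.4 FPKM in Pushen library 3, 84.5 and 85.3 FPKM in Pushen libraries 1 and 2, and between 80.7 and 110 FPKM in PT. Even so, Cdh5, Pecam1, Vwf, Tek, Flt1, Slco1a4, Emcn and Kdr were each lowest in Pushen library 3 of the 6 infarct libraries. Cldn5 (33.9 FPKM there) and Ly6c1 (19.0 FPKM), which make up much of the sum, were not. The part of these cells in the level of the mural genes was not tested. Without Pushen library 3 the log2 fold change of Anpep in Pushen against PT was -0.17, that of Acta2 -0.22, that of Tagln -0.17, that of Pdgfrb -0.14 and that of Myh11 0.10. Over all 20 alternatives, this one among them, the lowest log2 fold change was -0.82 for Anpep, -0.63 for Acta2 and -0.64 for Tagln. It was -0.40 for Pdgfrb and -0.36 for Myh11. The log2 fold change of Notch3 over the same alternatives lay between -0.54 and -0.31. That of Des lay between -0.62 and -0.18 and that of Vtn between -0.21 and -0.12, while those of Rgs5 and Abcc9 changed sign.

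Against Rgs5 within the same library, Acta2 was lower with Pushen, at 0.299, 0.350 and 0.252 in Pushen libraries 1, 2 and 3, against 0.406, 0.374 and 0.416 in PT, with no overlap. The mean log2 ratio differed by -0.42, at the smallest exact permutation p that the design allows (p = 0.10, adjusted 0.18). Pdgfrb to Rgs5 was 0.451, 0.394 and 0.332 with Pushen and 0.503, 0.505 and 0.445 in PT, and overlapped (exact permutation p = 0.20, adjusted 0.225). Without Pushen library 3 the differences were -0.30 for Acta2 to Rgs5 and -0.20 for Pdgfrb to Rgs5.

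Pushen was also compared with Sham. Of the 10 genes 5 were higher and 0 lower (median log2 fold change 0.65), where 13.5% of all tested genes were higher and 2.73% lower, 16.2% in all. Those that passed were Anpep (2.59 ± 0.29, adjusted p = 0.000764), Vtn (0.59 ± 0.09, adjusted p = 0.00284), Acta2 (1.02 ± 0.20, adjusted p = 0.00961), Pdgfrb (0.71 ± 0.16, adjusted p = 0.0190) and Tagln (0.93 ± 0.24, adjusted p = 0.0320, all edgeR). This comparison shares its Sham libraries with PT against Sham, so the results are not independent. In all, 7 of the 10 genes had every Pushen value above every Sham value, as had 27.2% of all tested genes, and Rgs5, Notch3 and Des overlapped. Notch3, at 3.35, 3.61 and 2.61 FPKM with Pushen and 2.14, 2.30 and 2.61 FPKM in Sham, met the Sham range with Pushen library 3 (log2 fold change 0.37 ± 0.15, adjusted p = 0.126, edgeR). Myh11, at 2.25, 3.21 and 1.71 FPKM with Pushen and 1.36, 1.15 and 1.43 FPKM in Sham, missed the threshold narrowly (0.80 ± 0.24, adjusted p = 0.0526, edgeR). That Myh11, Notch3 and Des passed in PT against Sham and not here does not show a difference, since none of them passed in Pushen against PT.

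Anpep, Vtn and Acta2 passed in all 20 alternatives. Pdgfrb lost its call without Pushen library 1 or 2 or Sham library 1 or 2 (adjusted p = 0.0732, 0.0739, 0.0742 and 0.0717, edgeR). Tagln lost its call without Pushen library 1 or 2 or any Sham library (adjusted p between 0.0799 and 0.106, edgeR). With Pushen library 1, Pushen library 2, Sham library 1 or Sham library 2 left out singly the count was 3. Of all 16740 tested genes between 1538 and 1660 were then called, against 2718 with all libraries. Without Pushen library 3 the count was 7, with Myh11 and Notch3 then passing (adjusted p = 0.0172 and 0.0465, edgeR), and 3329 of all tested genes were called. Among the other lists, 5 of 20 tested mural genes, 10 of 10 fibroblast and meningeal markers and 2 of 10 endothelial markers were higher with Pushen than in Sham. Of all tested genes 13.5% were higher.

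For Pdgfrb and Myh11, the genes with the most similar pattern, among those averaging 1 FPKM or more, were found by the root mean square difference of log2 CPM (counts scaled to library size) over the 9 libraries, after each gene was centred on its own mean. Among the 5 genes nearest to Pdgfrb were Man2b2, Slc39a1, Map3k1 and Esyt1, which differed from it by between 0.05 and 0.07 log2 units. Myh11 was followed less closely, by Plekhf2, Lama4, Fzd4, Tgfbr3 and Tiparp at between 0.14 and 0.17 log2 units. Among 14409 genes compared, no other member of the set was among the 5 nearest of either gene.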

How the data were processed

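The authors deposited raw read counts and FPKM for each gene and library, the counts being whole numbers and the FPKM scaled by the authors, per the file headers. Bowtie 0.12.2 and the build mm8 are named in the submitters' processing notes. The coordinates nevertheless match GRCm38: 94.2% of the identifiers found in GENCODE M21, 51957 of 55141, have identical bounds. The sources used here do not name the counter, its strand setting or its handling of reads that fit several genes. Column names tied each of the 18 value columns to 1 library. Within groups, chi-square per gene ran from 35.0 to 118, far beyond what copies of 1 library would give.

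Tests covered the 16740 genes averaging 0.5 FPKM or more. All 3 groups entered 1 edgeR 4.0.16 fit (R 4.3.3) with TMM scaling, followed by quasi-likelihood tests and Benjamini-Hochberg adjustment over all tested genes. Each SE was taken as the size of the log2 fold change over the root of F. The steps were tested on simulated data. Alternatives were other filters and scalings, DESeq2 1.42.0, limma-trend (limma 3.58.1) on log2 FPKM with a pseudocount of 1 or 0.1, fits of the compared groups alone, a replicate block, and libraries left out. All 10 genes are named throughout. Examples from the other lists, 46 genes, were picked after their values were seen, and so were their alternatives. Other list genes that are named were not followed through the alternatives. The members and lists were chosen with earlier results of these data known. Results of some genes are not reported here. Figures were drawn with matplotlib 3.10.9.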

Additional observations from a re-analysis of the deposited data

How the results depend on the processing

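In PT against Sham between 6 and 8 of the 10 genes were called with any library left out, 6 with a replicate block, 7 with no filter on low values and 8 in the other alternatives. In Pushen against PT 0 of the 10 were called in every alternative. In Pushen against Sham the count was between 3 and 7 with a library left out, 4 with a replicate block, 6 by DESeq2 and by library size only, and 5 otherwise. Same-numbered libraries did not deviate together (correlations of deviations from the group means between -0.22 and 0.10). This gave no sign that the numbers pair them, but a small shared effect could go unseen with 3 libraries a group. The block took the call from Myh11 and Des in PT against Sham (adjusted p = 0.0517 and 0.0568, edgeR) and from Tagln in Pushen against Sham (adjusted p = 0.0586, edgeR). Myh11 passed in Pushen against Sham by DESeq2 (adjusted p = 0.00965), by library size only (0.0364) and without PT library 2 (0.0481). Over all tested genes, Pushen against PT gave 49 calls by DESeq2 and between 0 and 5 with a library left out, 1 with only those groups fitted, and 2 without PT library 1 and Pushen library 2. PT against Sham gave 3198 and 3365 without Sham library 1 or 2. Pushen against Sham gave 1568, 1594, 1660 and 1538 without Pushen library 1 or 2 or Sham library 1 or 2. It gave 3329 without Pushen library 3 and 2718 with all libraries.

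Fold changes near 0 in Pushen against PT changed sign. Rgs5 was at -0.0017 and Abcc9 at -0.0071 with upper-quartile scaling. Without PT library 1 and Pushen library 2 Abcc9 was at -0.070. With a library left out the ranges were -0.095 to 0.11 for Rgs5, -0.088 to 0.055 for Abcc9 and -0.36 to 0.096 for Myh11. The cause was not tested. In PT against Sham, Mrtfa changed sign without Sham library 2 (range -0.15 to 0.012 with a library left out). No other direction changed in PT against Sham or Pushen against Sham. Of the 46 list genes followed through the alternatives, 33 passed in PT against Sham, of which 26 passed in all 20 alternatives and 7 lost the call in some (Cspg4, Myl9, Hey2, Foxf2, Nes, Kcnj11 and Cldn5). With 3 libraries a group, the widest interval among the 10 genes in Pushen against PT, that of Anpep, spanned -1.05 to 0.16 on the log2 scale.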
